A study of Mus musculus with 7 samples.

Results

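The transcripts of 10 genes of the cytotoxic granule were followed in 7 s/c tumors of mouse PDA cells, to ask how they differed between tumors of sgScramble control PDA cells and tumors of the same cells made to express icOVA, a cytoplasmic form of ovalbumin. The genes were the granzymes Gzma, Gzmb, Gzmc, Gzmd, Gzme, Gzmf and Gzmk, perforin (Prf1), Nkg7 and Fas ligand (Fasl), found by matching the Ensembl identifiers of the count table to mouse symbols. They are 10 of the 22629 rows of the table, and all 10 passed the filter on low counts. The rule that lists them uses no measured value, although they were chosen with earlier results of these tumors known.

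All tumors grew for 2 weeks in C57BL/6 mice from cell line 1242, which came from a pancreatic tumor of a genetically engineered mouse. The mice were bought at 6 weeks of age and housed for 2 weeks before an experiment. All cells carried a lentivirus with SpCas9 and a scrambled guide and had been selected with puromycin. The 4 icOVA tumors (tumors 15, 16, 18 and 2) came from sgScramble cells that were also transduced with a doxycycline-inducible ovalbumin vector, sorted and cloned from single cells, and their hosts ate doxycycline food from the day of inoculation. The 3 sgScramble tumors (tumors 1, 4 and 5) came from cells for which neither the labels nor the methods say whether they were 1 clone or polyclonal, whether they carried the ovalbumin vector, or whether their hosts received doxycycline. The paper's results describe tumors of ovalbumin-inducible cells in mice with and without doxycycline, but do not say which cells gave the sequenced sgScramble tumors. The methods give more inoculated cells for ovalbumin-inducible tumors than for other s/c tumors. Vector, clone, doxycycline, cell number and antigen therefore cannot be told apart in these data.

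Cytotoxic T cells and NK cells kill by releasing granules onto a target cell. Perforin makes pores in the target's membrane, and granzymes, a family of serine proteases, pass through and cleave proteins inside it. Granzyme B cuts after aspartate and starts apoptosis, granzymes A and K are trypsin-like, and the mouse has several further granzymes, encoded next to Gzmb, whose substrates are less well known. Fas ligand kills by another route, by binding the death receptor Fas.

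The granzyme B gene cluster lies on chromosome 14 of GRCm38, the assembly also called mm10. In GENCODE M21, all genes of its granzyme part are on the minus strand, so that Gzmb (ENSMUSG00000015437.5, 56258838 to 56262260) is followed, in the direction of transcription, by Gzmc (ENSMUSG00000079186.3, 56231441 to 56234656), Gzmf (ENSMUSG00000015441.4, 56205263 to 56211417), Gzmn (56165797 to 56174599), Gzmg (56156582 to 56159579), Gzmd (ENSMUSG00000059256.6, 56129556 to 56132608), Gzme (ENSMUSG00000022156.8, 56117626 to 56120625) and the gene of cathepsin G, Ctsg (56099881 to 56102574). Gzma (ENSMUSG00000023132.8, 113093825 to 113100981) and Gzmk (ENSMUSG00000042385.14, 113171608 to 113225908) are neighbours on chromosome 13, also on the minus strand. Prf1 is on chromosome 10 (ENSMUSG00000037202.6, 61297833 to 61304680), Nkg7 on chromosome 7 (ENSMUSG00000004612.9, 43437073 to 43438249) and Fasl on chromosome 1 (ENSMUSG00000000817.10, 161780689 to 161788495).

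The sequences before the starts of the cluster genes are shown because Gzmc, Gzmd, Gzme, Gzmf and Gzmg varied together among the tumors and Gzmb varied otherwise. Ranges such as Gzmc to Gzmg are by letter here, not by position, and leave out Gzmn. Each line runs from 130 bases before the RefSeq start of the gene to 10 bases after it, in the direction of transcription. The lines come from the RefSeq promoter windows on GRCm38.p6, and RefSeq and GENCODE starts can differ. For Gzmb, the RefSeq start lies upstream of its 5′ end in GENCODE (56262260), so that the whole Gzmb line lies before that end. The Gzmb line is chr14:56262325-56262464, and the Gzmc line is chr14:56234648-56234787. Those of Gzmd, Gzme, Gzmf and Gzmg are chr14:56132584-56132723, chr14:56120616-56120755, chr14:56211398-56211537 and chr14:56159570-56159709. Capitals mark the runs of at least 14 bases that all 5 windows from Gzmc to Gzmg share exactly.
Gzmb: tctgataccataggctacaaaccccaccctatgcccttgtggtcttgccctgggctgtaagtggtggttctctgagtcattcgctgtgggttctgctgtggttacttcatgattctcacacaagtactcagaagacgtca
Gzmc: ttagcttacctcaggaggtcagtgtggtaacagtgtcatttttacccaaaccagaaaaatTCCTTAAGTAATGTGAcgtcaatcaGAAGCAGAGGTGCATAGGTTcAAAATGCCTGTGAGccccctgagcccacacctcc
Gzmd: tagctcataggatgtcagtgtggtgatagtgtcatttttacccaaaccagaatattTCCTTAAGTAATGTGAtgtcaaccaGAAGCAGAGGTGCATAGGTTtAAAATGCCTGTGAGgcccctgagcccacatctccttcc
Gzme: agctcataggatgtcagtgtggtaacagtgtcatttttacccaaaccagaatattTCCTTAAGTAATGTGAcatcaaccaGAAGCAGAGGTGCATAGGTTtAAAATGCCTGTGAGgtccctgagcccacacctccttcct
Gzmf: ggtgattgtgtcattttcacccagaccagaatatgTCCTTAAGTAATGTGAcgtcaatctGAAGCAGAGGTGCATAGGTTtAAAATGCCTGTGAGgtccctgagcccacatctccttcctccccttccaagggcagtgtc
Gzmg: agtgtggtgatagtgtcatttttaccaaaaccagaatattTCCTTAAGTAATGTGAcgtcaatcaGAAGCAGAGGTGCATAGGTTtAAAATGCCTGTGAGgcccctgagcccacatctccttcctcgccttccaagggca

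The 5 genes from Gzmc to Gzmg shared runs of 20, 16 and 14 bases, and in none of the other genes, of 27025 with a window of 300 bases (250 before the start and 50 after it), did the window hold any of these runs on the same strand. The Gzmb window held none of them, but the whole window lies upstream of the 5′ end of Gzmb in GENCODE. The bases next to that end were therefore not searched for runs or motifs. The letters TGACGTCA, a cAMP response element, were in the windows of Gzmc, Gzmf and Gzmg and in 1.79% of 32851 windows. TGTGGT, the core of RUNX sites, was in 8 of the 10 windows, those of Gzma, Gzmb, Gzmc, Gzmd, Gzme, Gzmf, Prf1 and Nkg7, and in 16.8% of all windows. TGANTCA, an AP-1 site, was in the Gzmb window alone of the 10 and in 7.81% of all windows. GGTGTGA, a T-box site, was in the windows of Gzmk and Nkg7 and in 3.98% of all. GGAAGT, an ETS site, was in 7 of the 10, those of Gzmc, Gzmd, Gzme, Gzmf, Gzmk, Prf1 and Fasl, and in 23.8% of all. Both strands were searched, no motif here is contained in another, and the windows from Gzmc to Gzmg are near copies of each other, so that their matches are not separate observations.

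The transcripts are also alike. Those of Gzmd and Gzme were identical at 94.8% of aligned bases, and those of Gzmd and Gzmg at 90.1%. Reads of 76 bases could not be assigned between them where they matched exactly, which was so for 5.40% of the read positions in Gzmd, 4.4% in Gzme and 6.47% in Gzmg. The other 8 genes of the 10 shared no such position with another transcript. Counts of Gzmd and Gzme are uncertain to that extent.

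Total counts ran from 30904855 to 37510591 per tumor, and OVA, which checks the labels, had 85 to 151 counts in sgScramble tumors and 3413 to 10750 in icOVA tumors. The source of the OVA counts in the sgScramble tumors was not tested. Levels are CPM, the counts relative to the TMM-scaled size of the library. Differences are log2 fold changes of icOVA over sgScramble tumors with their standard error (SE), and a gene was called when its p from the quasi-likelihood test of edgeR, adjusted by the Benjamini-Hochberg method over the 17489 genes tested, was below 0.05. The tumors are labelled as separate samples, and no pair within a group agreed within sampling noise. Markers of T cells were present in all tumors, at a summed level of 80.5 to 120 CPM over 9 genes in sgScramble tumors and 182 to 281 CPM in icOVA tumors. In whole tumors, fewer cells of a type and less RNA per cell cannot be told apart.

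The 10 genes did not move as 1 group. Gzmk, Nkg7 and Fasl were higher in icOVA tumors, by 7.91, 2.38 and 2.11 fold. Gzmb and Prf1 were also higher in every icOVA tumor than in any sgScramble tumor, by 2.16 and 1.84 fold, but did not pass the threshold. The 4 listed genes that share a cluster with Gzmb, Gzmc to Gzmf, had lower means in icOVA tumors, with folds from 0.434 to 0.520. They overlapped between the groups, icOVA tumor 18 lying among the sgScramble tumors. Gzma overlapped as well. In all, 3 of the 10 were called higher, where 3.36% of all genes tested were, and 0 were called lower, where 2.54% of all genes were. Of the 10, 5 were higher in every icOVA tumor than in any sgScramble tumor, against 11.3% of all genes, and 0 were lower in every icOVA tumor, against 13.3%. None of the 4 genes with negative log2 fold changes had an unadjusted p below 0.05 with edgeR, whereas limma-voom gave unadjusted p values of 0.0396, 0.0482 and 0.0311 for Gzmc, Gzme and Gzmf. After adjustment, DESeq2 and limma-voom also called none of the 4. The median log2 fold change of the 10 genes was 0.66, and that of all genes tested was -0.0048.

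**Figure D1:**
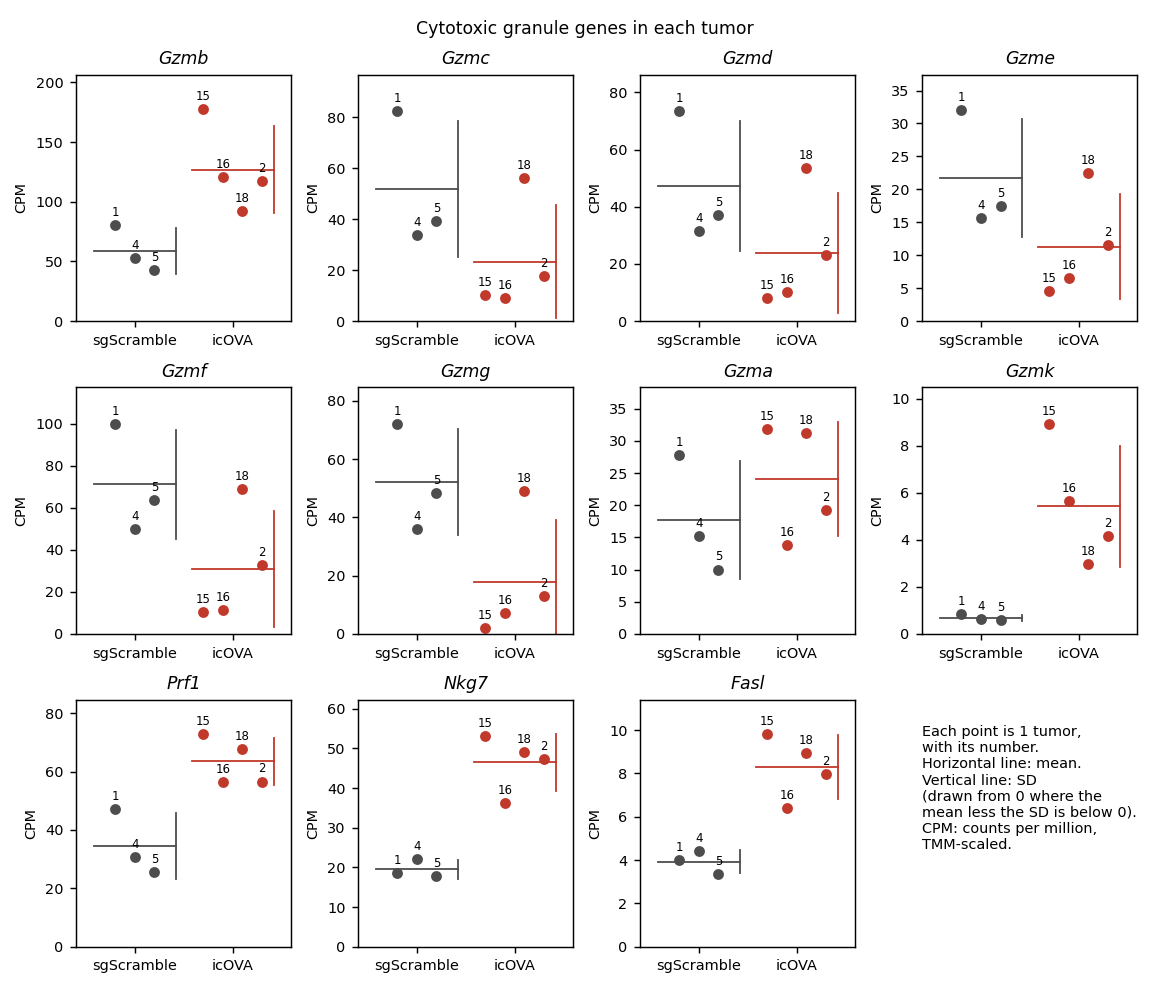
CPM of the 10 genes and of Gzmg in each tumor, as points numbered by tumor, with the group mean (horizontal line) and SD (vertical line; n = 3 sgScramble and n = 4 icOVA). Gzmb, Gzmk, Prf1, Nkg7 and Fasl do not overlap between the groups, whereas icOVA tumor 18 reaches the sgScramble tumors for Gzmc to Gzmg.

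Gzmb had 80.6, 52.5 and 43.0 CPM in sgScramble tumors 1, 4 and 5 and 178, 121, 92.0 and 118 CPM in icOVA tumors 15, 16, 18 and 2. The lowest icOVA tumor, tumor 18, was thus close to the highest sgScramble tumor, tumor 1. The log2 fold change was 1.11 ± 0.27 (SE) with an edgeR adjusted p of 0.0547. Without icOVA tumor 18 it was 1.24 ± 0.26 (SE) with an edgeR adjusted p of 0.0416, and Gzmb was then called. It was 0.92 without icOVA tumor 15 and 0.93 without sgScramble tumor 5, with edgeR adjusted p values of 0.122 and 0.210. With all tumors, DESeq2 called Gzmb (adjusted p = 0.000846) and limma-voom did not (0.0537).

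Gzmc to Gzmf lie in the cluster of Gzmb and are known from strongly activated T cells and NK cells. Gzmc had 82.4, 33.8 and 39.2 CPM in sgScramble tumors 1, 4 and 5 and 10.2, 9.23, 56.3 and 17.6 CPM in icOVA tumors 15, 16, 18 and 2. Gzmf had 99.9, 49.9 and 63.6 CPM in the sgScramble tumors and 10.5, 11.2, 69.0 and 32.7 CPM in the icOVA tumors, in the same order. The other 3 icOVA tumors were below every sgScramble tumor for both genes, and tumor 18 was second to sgScramble tumor 1. Gzmd had 73.5, 31.4 and 37.0 CPM against 8.10, 10.1, 53.6 and 23.1 CPM, and Gzme had 32.0, 15.6 and 17.4 CPM against 4.56, 6.56, 22.4 and 11.6 CPM. From Gzmc to Gzmf, the ranking of the tumors was the same from the first to the fifth: sgScramble 1, icOVA 18, sgScramble 5, sgScramble 4 and icOVA 2, with icOVA 15 and 16 last.

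The log2 fold changes of Gzmc, Gzmd, Gzme and Gzmf were -1.15 (SE 0.65), -1.0 (SE 0.64), -0.94 (SE 0.53) and -1.21 (SE 0.64), with adjusted p values of 0.294, 0.351, 0.285 and 0.266 from edgeR. Without icOVA tumor 18 they were -2.07 (SE 0.40), -1.78 (SE 0.47), -1.52 (SE 0.40) and -1.97 (SE 0.48), with adjusted p values of 0.0359, 0.0685, 0.0675 and 0.0570 from edgeR, so that Gzmc alone was called. Without sgScramble tumor 1, the highest of all tumors, they were -0.64, -0.52, -0.55 and -0.87, with adjusted p values from 0.576 to 0.741 from edgeR. Among the icOVA tumors, the highest Gzmc level was 6.10 times the lowest, a spread larger than the difference between the group means.

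Gzmg, which lies between Gzmn and Gzmd, ranked the tumors in the same way, and Ctsg did so in part. Gzmg had 71.9, 36.1 and 48.5 CPM in the sgScramble tumors and 1.89, 7.22, 49.0 and 12.9 CPM in the icOVA tumors. Its highest tumor was 38 times its lowest, and its log2 fold change was -1.56 ± 0.87 (SE) with an edgeR adjusted p of 0.285. Without icOVA tumor 18 it was -2.84 ± 0.60 (SE) with an edgeR adjusted p of 0.0426. It was -1.25 without sgScramble tumor 1 and -1.17 without icOVA tumor 15, with edgeR adjusted p values of 0.561 and 0.383. Ctsg, at the far end, was low in all tumors, with 3.05, 1.88 and 1.34 CPM against 0.216, 0.172, 1.98 and 0.311 CPM, and icOVA tumor 18 was again second to sgScramble tumor 1 (log2 fold change -1.64 ± 0.82 (SE) with an edgeR adjusted p of 0.238). Gzmn, the remaining granzyme of the cluster, had at most 6 counts in any tumor and was not tested.

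**Figure D2:**
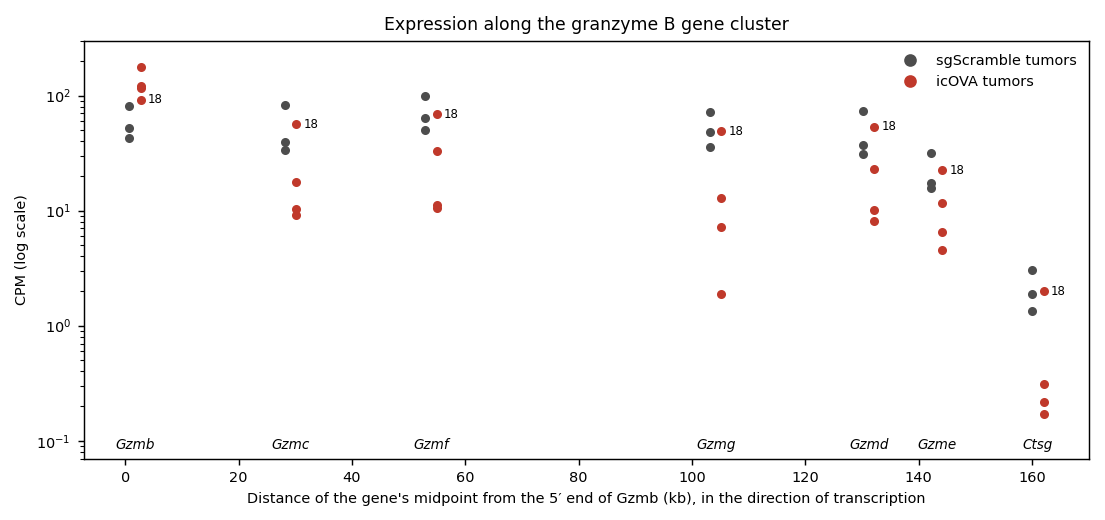
CPM, on a log scale, of 7 genes of the granzyme B cluster in each tumor (points) against the distance of each gene from the 5′ end of Gzmb in kb. Beyond Gzmb, 3 of the 4 icOVA tumors lie below the sgScramble tumors at each gene, and icOVA tumor 18 (labelled) lies among them.

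Tumor 18 differed from the other icOVA tumors in other measures as well. Its OVA level was the lowest of the 4, at 98.2 CPM against 186 to 308 CPM. Krt18, an epithelial keratin of the cancer cells, was 852 CPM against 1154 to 1298 CPM. Ccl21a, a chemokine of lymph node stroma, was 22.0 CPM against 0.622 to 3.81 CPM, and the summed level of 9 mast cell genes was 444 CPM against 106 to 197 CPM. Among the sgScramble tumors, Ccl21a was 11.4 CPM in tumor 4 and 0.345 and 0.352 CPM in tumors 1 and 5. In icOVA tumor 18, Cd3e, at 29.4 CPM, lay between those of the other icOVA tumors (21.3 to 35.2 CPM). The part of these differences in the granzyme levels was not tested.

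The make-up of the granzyme transcripts was compared within each tumor, with levels divided by transcript length so that genes could be added. Gzmc to Gzmg together were 82.2%, 77.5% and 84.6% of the summed CPM per kb of the granzymes in sgScramble tumors 1, 4 and 5. In icOVA tumors 15, 16, 18 and 2 they were 19.1%, 32.0%, 73.6% and 50.4%. Gzmb was 11.8%, 15.6% and 11.3% in the sgScramble tumors, against 61.7%, 56.0%, 17.3% and 38.9% in the icOVA tumors. Neither share overlapped between the groups, although tumor 18 came within 4 percentage points of sgScramble tumor 4 for both. In sgScramble tumors, Gzmf had the highest mean level per length of all granzymes, at 77.4 ± 28.2 CPM per kb (SD, n = 3), against 40.9 ± 13.6 for Gzmb. In icOVA tumors Gzmb was highest, at 88.4 ± 25.1 CPM per kb (SD, n = 4), against 33.6 ± 29.9 for Gzmf.

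**Figure D3:**
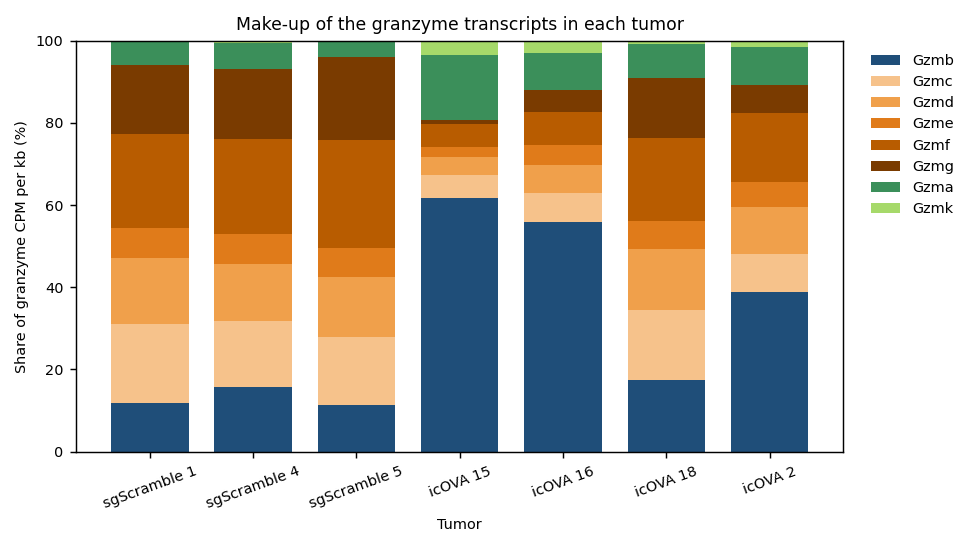
Share of each granzyme in the summed CPM per kb of the granzymes, in percent, as stacked bars for each tumor. Gzmc to Gzmg (orange to brown) take 77.5% to 84.6% in the sgScramble tumors and 19.1% to 73.6% in the icOVA tumors, where Gzmb (blue) takes 17.3% to 61.7%.

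Ratios within a tumor do not depend on how libraries are scaled. The counts of Gzmb were 0.807, 1.05 and 0.676 times those of Gzmf in sgScramble tumors 1, 4 and 5, against 17.0, 10.8, 1.33 and 3.59 times in icOVA tumors 15, 16, 18 and 2. The log2 ratios of Gzmc, Gzmd, Gzme and Gzmf to Gzmb were lower in icOVA tumors by differences of -2.57, -2.42, -2.25 and -2.71, without overlap (exact two-sided permutation test, p = 0.0571 for each, the smallest that 3 against 4 tumors allow, and 0.103 after Benjamini-Hochberg adjustment over 9 genes). Without icOVA tumor 18 the differences were -3.27, -3.09, -2.80 and -3.38, the largest that omitting any tumor gave. The smallest, reached for Gzmc, Gzmd, Gzme and Gzmf by omitting other tumors, were -2.14, -1.87, -1.73 and -2.16. Ratios among these cluster genes were also taken. Gzmc counts were 0.538 to 0.979 times those of Gzmf over all 7 tumors, and Gzmd counts were 0.581 to 0.898 times. Both ratios overlapped between the groups. Gzme counts were 0.274 to 0.320 times those of Gzmf in sgScramble tumors and 0.325 to 0.586 times in icOVA tumors. These did not overlap but nearly met, at 0.320 in sgScramble tumor 1 and 0.325 in icOVA tumor 18, and the difference was not tested. Gzmg, with 0.719 to 0.762 times the Gzmf counts in sgScramble tumors, had 0.181, 0.645, 0.710 and 0.394 times in icOVA tumors 15, 16, 18 and 2.

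Gzmk, which marks subsets of CD8 T cells, had few counts, with 29, 21 and 18 in sgScramble tumors 1, 4 and 5, against 331, 197, 104 and 134 in icOVA tumors 15, 16, 18 and 2. These are 0.835, 0.638 and 0.576 CPM and 8.94, 5.65, 2.99 and 4.17 CPM. The lowest icOVA tumor had more than any sgScramble tumor, and tumor 18 was again the icOVA tumor closest to the sgScramble tumors. The log2 fold change was 2.98 ± 0.42 (SE) with an edgeR adjusted p of 0.0230. Gzmk also differed relative to Gzmb, by 1.67 on the log2 scale, and relative to Cd3e, by 1.52, each without overlap (exact two-sided permutation test, p = 0.0571; adjusted 0.103 over 9 genes and 0.114 over 10 genes). Esm1, a gene of endothelial cells that overlaps Gzmk on the other strand, had a log2 fold change of -0.03 ± 0.24 (SE) with an edgeR adjusted p of 0.946. Even in icOVA tumors Gzmk was at most 3.21% of the granzyme transcripts per length.

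Gzma, its neighbour on chromosome 13, had 27.9, 15.2 and 10.0 CPM in sgScramble tumors 1, 4 and 5 and 31.9, 13.9, 31.2 and 19.3 CPM in icOVA tumors 15, 16, 18 and 2. The groups overlapped across most of their range, and the log2 fold change of 0.44 (SE 0.40) did not pass the threshold. Leaving out sgScramble tumor 5 lowered it to 0.16, and leaving out sgScramble tumor 1 raised it to 0.94 with an edgeR adjusted p of 0.279. Gzma did not pass with any 1 of the 7 tumors left out. Gzma is abundant in NK cells. Of 8 NK cell genes, 8 had positive log2 fold changes with a median of 0.71, and Eomes alone was called. The ratio of Gzma counts to those of Ncr1, an NK cell receptor, was 7.07, 4.12 and 3.96 in the sgScramble tumors, against 5.76, 7.33, 3.75 and 4.97 in the icOVA tumors, so that the groups overlapped. Gzmm, a granzyme encoded on chromosome 10, had 11 to 21 counts in every tumor and a log2 fold change of 0.04 ± 0.32 (SE) with an edgeR adjusted p of 0.946, and this fold change turned negative without sgScramble tumor 1, icOVA tumor 18 or icOVA tumor 2.

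Prf1 had 47.3, 30.7 and 25.6 CPM in sgScramble tumors 1, 4 and 5 and 72.9, 56.6, 67.7 and 56.6 CPM in icOVA tumors 15, 16, 18 and 2. The groups did not overlap, and the log2 fold change was 0.88 ± 0.21 (SE) with an edgeR adjusted p of 0.0517, which limma-voom (0.0462) and DESeq2 (0.00129) placed below 0.05. In the sgScramble tumors the counts of Gzmb were 1.71, 1.71 and 1.68 times those of Prf1. In the icOVA tumors they were 2.44, 2.14, 1.36 and 2.08 times, so that tumor 18 was the lowest and the others the highest.

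Nkg7, a membrane protein of cytotoxic granules that is needed for their release, had 18.6, 22.1 and 17.7 CPM in sgScramble tumors 1, 4 and 5 and 53.1, 36.3, 49.2 and 47.2 CPM in icOVA tumors 15, 16, 18 and 2. Here icOVA tumor 18 lay with the other icOVA tumors. The log2 fold change was 1.25 ± 0.15 (SE) with an edgeR adjusted p of 0.0230, with the smallest SE of the 10 genes. Fasl had 4.0, 4.44 and 3.36 CPM in the sgScramble tumors and 9.83, 6.39, 8.95 and 7.99 CPM in the icOVA tumors. Its groups were separate too, and its log2 fold change was 1.08 ± 0.19 (SE) with an edgeR adjusted p of 0.0284.

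**Figure D4:**
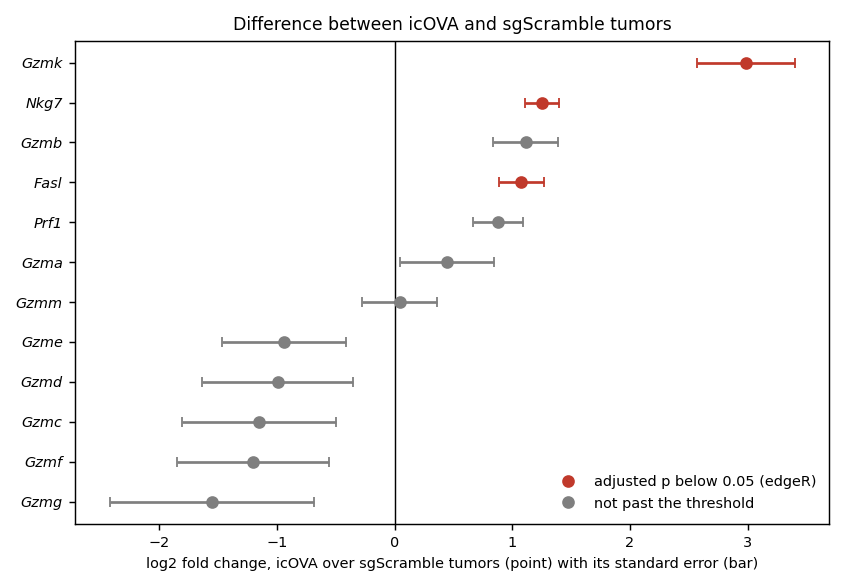
Log2 fold change of icOVA over sgScramble tumors (point) with its SE (bar) for the 10 genes, Gzmg and Gzmm, in red where the adjusted p was below 0.05. Gzmk, Nkg7 and Fasl pass, and Gzmc to Gzmg lie below 0 with the widest bars. Scaled to Cd3e, the values of Gzma, Gzmb, Prf1, Nkg7 and Fasl fall below 0, where the median of all genes falls to -1.27.

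The 3 calls depended on the tumors included. Without sgScramble tumor 1, sgScramble tumor 5, icOVA tumor 15 or icOVA tumor 2, none of the 10 genes was called, and their adjusted p values (Gzmk, Nkg7 and Fasl, edgeR) lay between 0.0614 and 0.139. The loss was not particular to these genes. Of all genes tested, 0 were called in the first 3 of these fits, and 6 higher and 2 lower without icOVA tumor 2. The log2 fold changes themselves stayed between 2.64 and 3.19 for Gzmk, 1.19 and 1.36 for Nkg7 and 0.98 and 1.18 for Fasl with each tumor left out in turn.

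T cell genes also rose, and the granule genes were therefore set against Cd3e, a subunit of the T cell receptor complex, within each tumor. All 9 T cell genes tested were called higher, with a median log2 fold change of 1.27. Nkg7 counts were 2.02, 1.52 and 1.52 times those of Cd3e in sgScramble tumors 1, 4 and 5, against 1.51, 1.70, 1.67 and 1.70 times in icOVA tumors 15, 16, 18 and 2. Fasl counts were 0.288 to 0.434 times those of Cd3e in sgScramble tumors and 0.280 to 0.304 times in icOVA tumors. Both ratios overlapped between the groups, with log2 differences of -0.021 for Nkg7 and -0.21 for Fasl (exact two-sided permutation test, p = 0.800 and 0.229). Gzmb and Prf1 relative to Cd3e also overlapped, with differences of -0.14 and -0.35. For each of these 4 genes sgScramble tumor 1 had the highest ratio of all tumors, and without it the differences were 0.28 for Gzmb, 0.070 for Prf1 and 0.11 for Nkg7. Relative to Cd3e, Gzmc, Gzmd, Gzme and Gzmf were lower by differences of -2.71, -2.56, -2.39 and -2.85, and each was lower in every icOVA tumor than in any sgScramble tumor (exact two-sided permutation test, p = 0.0571; adjusted 0.114 over 10 genes). These tests cannot reach 0.05 with 3 and 4 tumors. Most genes fall relative to Cd3e: scaled to it, the median log2 fold change of all genes was -1.27. Of 17489 genes tested, 14726 were then called lower (edgeR). The share of all genes that do not overlap relative to Cd3e was not counted.

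The machinery around the granule genes was followed in 9 lists of 102 genes, of which 100 were tested. Of these, 26 were called higher, where 3.36% of all genes tested were, and 1 was called lower, where 2.54% of all genes were. The median log2 fold change of these genes was 0.46. Among 12 genes that store and activate granzymes, 3 were called higher. These were Srgn, the proteoglycan that binds granzymes in the granule, with 121 ± 15.9 CPM (SD, n = 3) in sgScramble tumors and 221 ± 20.2 CPM (SD, n = 4) in icOVA tumors, Ctsc, the protease that removes the propeptide of granzymes (467 ± 63.5 and 727 ± 41.0 CPM), and Cst7, an inhibitor of Ctsc (7.09 ± 0.528 and 13.8 ± 1.72 CPM). Which cells carried these transcripts was not tested. Ptprc, a gene of leukocytes in general, was also higher in icOVA tumors. It had 132, 175 and 116 CPM in sgScramble tumors 1, 4 and 5 and 363, 258, 312 and 260 CPM in icOVA tumors 15, 16, 18 and 2. Of 13 genes of granule exocytosis, 3 were called higher, the synaptotagmin-like genes Sytl1, Sytl2 and Sytl3, with log2 fold changes of 1.09, 0.72 and 1.08. Among 5 serpins that inhibit granzymes, none was called in either direction and none had an unadjusted p below 0.05 (edgeR). Their median log2 fold change was -0.0030, and the 2 with the lowest adjusted p values were Serpinb6b (-0.26, adjusted p = 0.432 from edgeR) and Serpinb9b (-0.29, adjusted p = 0.456 from edgeR).

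Death receptors with their ligands, and genes that carry out apoptosis, came next. Of 9 genes listed as death receptor ligands and receptors 1 was called higher, Tnfrsf1b, a TNF receptor that is not itself a death receptor (log2 fold change 0.59 ± 0.08 (SE) with an edgeR adjusted p of 0.0230). Fas, the receptor of Fas ligand, was not called (0.66 ± 0.16 (SE) with an edgeR adjusted p of 0.0560). Of the 9 genes, Fas among them, 5 were higher in every icOVA tumor than in any sgScramble tumor, against 11.3% of all genes. Of 15 apoptosis executors, Cycs, cytochrome c, was called higher (0.34 ± 0.07 (SE) with an edgeR adjusted p of 0.0398), and Gsdme, a gasdermin that caspase 3 and granzyme B cleave, was called lower. Gsdme had 8.06 ± 0.575 CPM (SD, n = 3) in sgScramble tumors and 5.0 ± 0.816 CPM (SD, n = 4) in icOVA tumors (log2 fold change -0.69 ± 0.16 (SE) with an edgeR adjusted p of 0.0469). This call was lost without the filter on low counts (edgeR adjusted p of 0.0579) and with any 1 tumor left out other than icOVA tumor 16 (edgeR adjusted p values from 0.0606 to 0.196).

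Genes that drive or accompany cytotoxicity made up the last lists. Of 13 transcription factors 4 were called higher, Batf (1.21), Irf4 (1.39), Runx3 (0.58) and Eomes (1.05), with log2 fold changes in parentheses. Of 16 cytokine and receptor genes 4 were called higher, the receptor subunits Il2rg (0.98), Il21r (0.92) and Il12rb2 (1.16) and the cytokine Ifng (1.08). Of 15 other genes of cytotoxic lymphocytes 10 were called higher, among them the chemokines Ccl5 (1.01) and Ccl4 (1.38) and the Fc receptor subunits Fcgr3 (0.55) and Fcer1g (0.71), the last 2 of which myeloid cells also express.

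**Figure D5:**
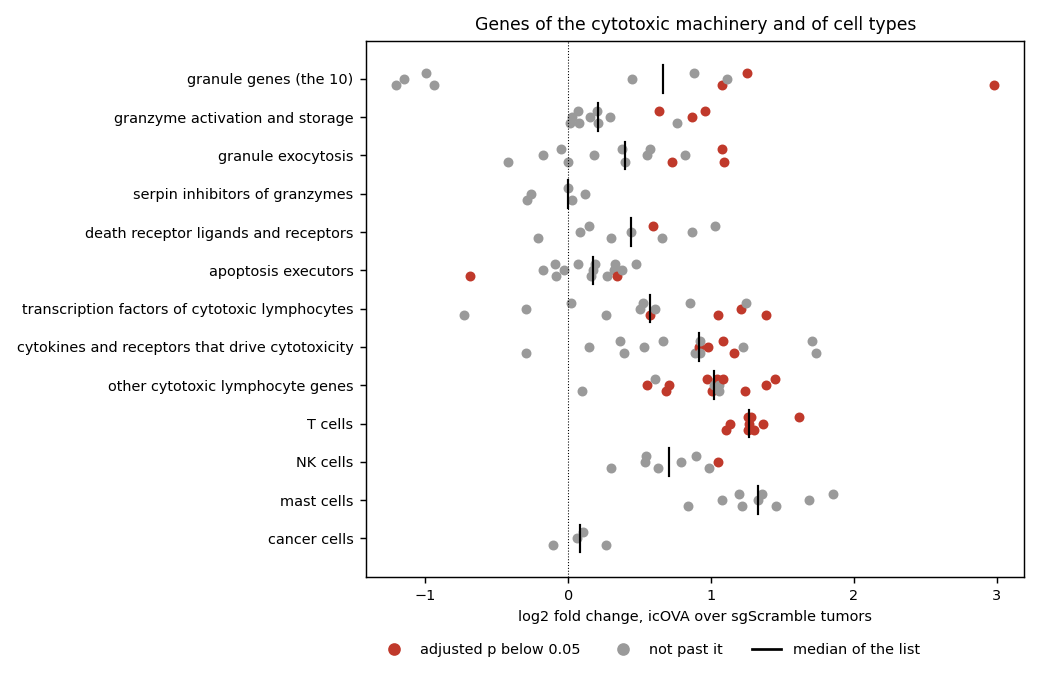
Log2 fold changes of icOVA over sgScramble tumors for the tested genes of 13 lists (points, red where the adjusted p was below 0.05) with the median of each list (black line). All 9 T cell genes pass the threshold, no serpin or mast cell gene does, and the 10 granule genes spread from -1.21 to 2.98. Scaled to Cd3e, the median of all genes falls to -1.27 and none of the machinery genes passes as higher.

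Other cells could carry single genes of these lists, and their markers were read in the same way. Of 2 CD8 T cell genes, Cd8b1 was called higher (log2 fold change 1.36) and Cd8a had an adjusted p of 0.0505 from edgeR. Of 5 tested genes of gamma delta T cells, Tcrg-C2 was called higher (1.27). Of 9 mast cell genes none was called (edgeR), 1 had an unadjusted p below 0.05, and the median log2 fold change was 1.33. Their summed level was 33.5 to 210 CPM in sgScramble tumors and 106 to 444 CPM in icOVA tumors. Kit and Ms4a2 had the lowest adjusted p values, 0.141 and 0.216 from edgeR. Mcpt1, a mast cell protease gene of the same chromosome 14 locus, was higher in every icOVA tumor, at 34.3, 15.4, 99.3 and 27.8 CPM against 2.02, 10.6 and 5.69 CPM (log2 fold change 2.86 ± 0.78 (SE) with an edgeR adjusted p of 0.0690). Of 4 genes of plasmacytoid dendritic cells, which express Gzmb in some settings, Ccr9 (1.94) and Siglech (1.81) were called higher, at 4.03 and 6.00 CPM in icOVA tumors. Of 7 neutrophil genes 3 were tested and none was called, Ctsg and S100a8 (0.53, adjusted p = 0.341 from edgeR) having the lowest adjusted p values. The basophil gene Mcpt8 (-0.46), the 4 keratin and epithelial genes of the cancer cells (Krt8, 0.10, and Krt18, -0.11, with the lowest adjusted p values) and the 2 tested genes of lymph node stroma (Ccl19, 1.63, and Ccl21a, 0.79) were not called. The part of any of these cells in the granule genes was not tested.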

How the data were processed

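The authors deposited raw counts per gene, whole numbers without normalization. The submitters' processing notes name mm10. The aligner, the counting tool and whether strand was used are not given in the sources used here. Libraries were described as stranded total RNA in the methods and as polyA RNA in the labels, read as single 76-base reads. Counts were fitted with edgeR 4.0.16 in R 4.3.3 (filterByExpr with minimum count 10 and minimum total 15, TMM, quasi-likelihood test, no covariates). The SE is the log2 fold change divided by the root of F. On simulated counts with 200 of 17228 genes changed by 4 fold, 92.5% of those were called, with 7 unchanged genes. The simulated spread was that typical of genes at each level, and most of the 10 genes differed by less than 4 fold. The 92.5% therefore does not describe the 10 genes. Log2 CPM had a prior count of 2. Permutation tests were exact and two-sided (scipy 1.17.1). Identifiers, positions and lengths came from GENCODE M21.

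The genes and lists were chosen with earlier results of these data known. Named were the 10 genes, the other granzymes, OVA, Cd3e, Cd8a and Ptprc, and from each list the called genes, at most the 4 with the lowest adjusted p, or with none called the 2 lowest. For Gzma, Gzmb and Gzmk, the 5 genes most alike were named among those with a mean count of at least 50. Other genes were named after their values were seen (Esm1, Ncr1). Alternatives were DESeq2 1.42.0, limma-voom (limma 3.58.1), other scalings and filters, robust dispersion, and each tumor left out.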

Additional observations from a re-analysis of the deposited data

Results flagged for a closer look

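Among the icOVA tumors, the TNF receptor gene Tnfrsf1b was 7.42 log2 CPM in tumor 2 and 7.52, 7.53 and 7.54 log2 CPM in the others, a gap of 0.872 of the range. Runx3, a transcription factor of cytotoxic T cells, was 4.33 log2 CPM in icOVA tumor 16 against 4.64, 4.65 and 4.67 log2 CPM, a gap of 0.913 of the range. Both gaps exceed Dixon's critical value for 4 samples at the level of 0.05. Of 57 genes examined, 2 had such a value, and chance gives about 1 in 20 groups, or 2.85 genes. None of the 10 granule genes was among them, tumor 18 included for Gzmc to Gzmf.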

How the results depend on the processing

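Of the 10 genes, 3 were called higher with edgeR, against 5 with DESeq2, 5 with at least 10 counts required in every tumor, 1 scaled to Cd3e and 1 scaled to Ptprc, and 0 to 4 with each tumor left out. None was called lower, against 5 scaled to Cd3e, 5 scaled to Ptprc, and 0 to 1 with each tumor left out (Gzmc, without icOVA tumor 18). Of the machinery genes, 26 were called higher, against 54 with DESeq2, 0 scaled to Cd3e, 0 scaled to Ptprc and 0 to 40 with each tumor left out. The machinery genes called lower were 1, against 2 with DESeq2, 0 without a filter, 63 scaled to Cd3e, 57 scaled to Ptprc and 0 to 1 with each tumor left out. Over all genes, DESeq2 called 1558 higher and 1278 lower, against 588 and 444. Scaling to Cd3e or Ptprc moved the median of all genes to -1.27 and -1.10 and called 14726 and 14053 genes lower, so that by construction most genes turn negative. Scaled to Cd3e, the log2 fold changes of Gzma, Gzmb, Prf1, Nkg7 and Fasl were -0.98, -0.24, -0.47, -0.034 and -0.22. Scaled to Ptprc, those of Gzma, Gzmb, Prf1 and Fasl were -0.70, -0.0045, -0.23 and -0.020.

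No gene at all was called by edgeR when sgScramble tumor 1 or 5, or icOVA tumor 15, was left out, with 3087, 2936 and 3415 genes at an unadjusted p below 0.05, and without icOVA tumor 2, 6 were called higher and 2 lower, with 4008 at an unadjusted p below 0.05. With each tumor left out, the log2 fold change ran from -0.18 to 0.31 for Gzmm, from -0.18 to 0.0049 for Krt18 and from -1.05 to 4.32 for Ccl21a. The log2 ratios to Gzmb ran from -0.16 to 0.27 for Nkg7 and from -0.30 to 0.080 for Fasl, and those to Cd3e from -0.36 to 0.28 for Gzmb, from -0.57 to 0.070 for Prf1 and from -0.089 to 0.11 for Nkg7. The cause was not tested. Of the values of the 10 genes and Gzmg under alternatives that kept all tumors and did not scale to a gene, 83 stayed on their side of the threshold in the same direction and 5 newly passed it. No paired analysis was possible because no tumor number occurs in both groups.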

Other observations

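Over the 7 tumors, the genes whose log2 CPM was most like that of Gzma by Pearson's r, among 14114 genes, were Tyk2 (0.98), Platr25 (0.96), Mterf1a (0.96), Srgap1 (0.96) and Ttc14 (0.94). For Gzmb they were Clock (0.99), Tmem30a (0.98), Ccdc82 (0.98), Alox15 (0.98) and Phf20l1 (0.97), and for Gzmk Atp1b3 (0.99), Zbtb32 (0.99), Plcl2 (0.98), Vma21 (0.98) and Hspd1-ps3 (0.98). The 7 tumors fall into the 2 groups, so that a gene that differs between the groups can have a high r with Gzmk for that alone, and these values are descriptions without a test.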
